A study of Homo sapiens with 16 samples.

Results

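The genes described here are the clock repressors PER1, PER2, PER3, CRY1, CRY2 and CIART, taken by gene symbol from 4 deposited tables that each hold 60658 genes. All 6 symbols were found, each with 1 row per table. They were measured in MDA-MB-231, an established line from a human breast carcinoma, in wild type (WT) cells and in cells labelled BMAL1 -/- (KO). Each genotype was grown as control or with cisplatin, a DNA crosslinking drug, with doxorubicin, a topoisomerase poison that intercalates into DNA, or with tunicamycin, an inhibitor of N-linked glycosylation. This gave 16 samples in 8 groups of 2 biological replicates, with doses and times not given in the sources used here. The labels name no clone and not the edited part of BMAL1, so an effect of the knockout and a difference between cultures or clones cannot be told apart. Levels are the authors' group values in FPKM (fragments scaled to transcript length and library size). There is 1 value per group and none per library, so no SD can be given, and all values below cover 1 group of 2 samples each.

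BMAL1 (gene symbol ARNTL) pairs with CLOCK or NPAS2 and binds E-box sequences in promoters. Among its targets are the PER and CRY genes, whose proteins enter the nucleus together and repress the BMAL1-CLOCK pair that made them, which closes the feedback loop of the circadian clock. CIART (CHRONO) is a further repressor that binds BMAL1, and its gene is itself an E-box target. PER genes also answer to other inputs, among them cAMP, glucocorticoids and stress kinases, and carry D-boxes, sites of the PAR bZIP factors and NFIL3.

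The stretches before the start sites are shown because E-boxes, the letters that BMAL1 is known to bind, differ in number among them. They come from RefSeq (GRCh38.p14), run 5′ to 3′ on the strand of the gene, and were limited to bases that lie in no exon of the gene in GENCODE 29. For CRY1, whose window lies in an exon of a longer transcript, only 30 bases around the match are printed. The windows of PER1 and PER2 also lie within their genes in GENCODE 29, which reach upstream to 8156506 and 238290102. The stretches before those outer ends were not searched. Capitals mark the E-box CACGTG, its variant CACGTT (read on the other strand as AACGTG) and the D-box letters TTATGTAA, TTACGTAA and TTATGCAA.
PER1, chr17:8152436-8152654, minus strand: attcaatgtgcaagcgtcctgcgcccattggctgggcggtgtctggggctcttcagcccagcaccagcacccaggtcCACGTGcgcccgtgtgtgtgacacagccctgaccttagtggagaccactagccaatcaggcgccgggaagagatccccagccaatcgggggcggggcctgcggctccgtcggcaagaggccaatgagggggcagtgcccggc
PER2, chr2:238288611-238288860, minus strand: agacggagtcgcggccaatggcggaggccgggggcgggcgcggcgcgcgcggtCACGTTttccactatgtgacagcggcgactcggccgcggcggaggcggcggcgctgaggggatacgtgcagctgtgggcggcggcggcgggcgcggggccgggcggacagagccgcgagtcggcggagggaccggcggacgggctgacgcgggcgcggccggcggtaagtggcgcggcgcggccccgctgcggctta
PER3, chr1:7784041-7784290, plus strand: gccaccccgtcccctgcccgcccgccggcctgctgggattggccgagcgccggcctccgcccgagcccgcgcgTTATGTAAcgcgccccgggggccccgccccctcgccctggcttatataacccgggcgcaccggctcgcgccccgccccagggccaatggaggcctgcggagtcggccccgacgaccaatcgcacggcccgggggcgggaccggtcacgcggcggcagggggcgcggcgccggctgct
CRY1, chr12:107093621-107093650, minus strand: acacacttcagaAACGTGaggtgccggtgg
CRY2, chr11:45847282-45847405, plus strand: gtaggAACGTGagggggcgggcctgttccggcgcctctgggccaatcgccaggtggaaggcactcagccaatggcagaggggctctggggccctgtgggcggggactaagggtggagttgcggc
CIART, chr1:150282304-150282542, plus strand: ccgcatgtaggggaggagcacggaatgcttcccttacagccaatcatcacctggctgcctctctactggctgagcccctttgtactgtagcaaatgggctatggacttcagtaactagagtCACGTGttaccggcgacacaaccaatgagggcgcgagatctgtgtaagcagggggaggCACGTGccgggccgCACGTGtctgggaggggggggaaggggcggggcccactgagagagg
CIART held 3 E-boxes, which begin 129, 71 and 57 bases before its start site. PER1 held 1, at 173 bases before its start. PER2, CRY1 and the downstream start of CRY2 held the variant instead, at 197, 89 and 188 bases. PER3 was the exception, with no E-box and no variant before either of its start sites, but with the D-box letters 177 bases before the first. The upstream start of CRY2 held none of these motifs. The PER1 D-box letters begin 30 bases before its start and those of PER2 begin 3 bases before its start and run across it, so neither is in the printed stretches. For comparison, both strands of 35093 RefSeq windows of 250 bases were searched. CACGTG was in 6.34% of them, CACGTT in 4.55%, the D-box letters in 1.72%, and 3 or more E-boxes in 0.0769%. A match is a description of letters and not a bound site.

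**Figure D1:**
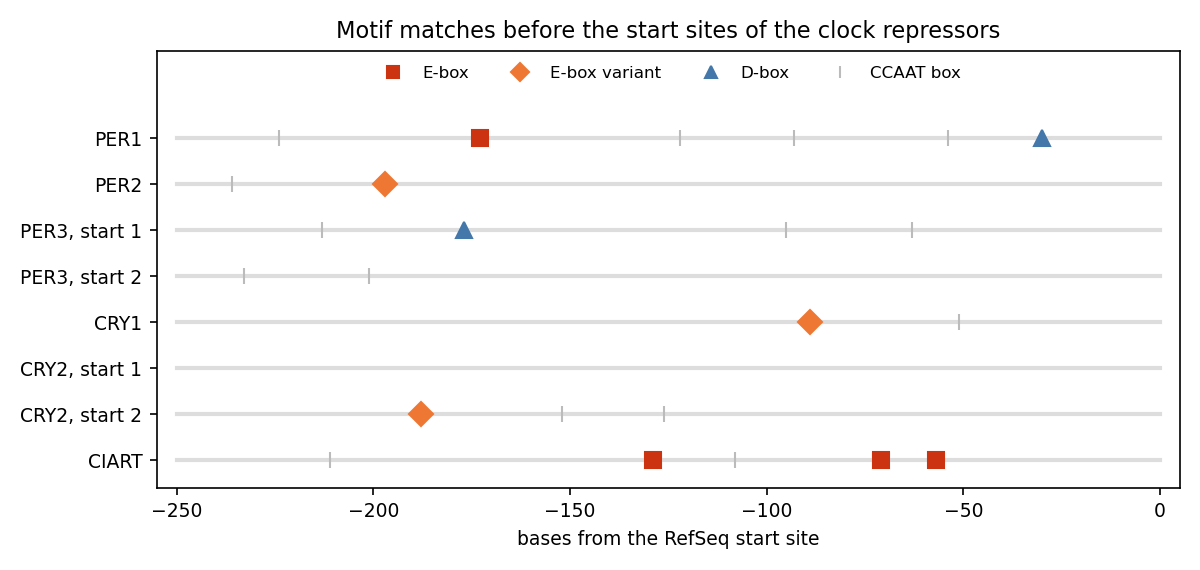
Position of motif matches in the 250 bases before each RefSeq start site (x axis, bases from the start; 1 line per start site, with 2 each for PER3 and CRY2). CIART carries 3 E-boxes, PER1 carries 1, PER2, CRY1 and the second CRY2 start carry the variant, and PER3 carries neither. Grey ticks mark CCAAT boxes, which 32.0% of windows hold.

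Counts per library are not given, and a rough guide to relative depth taken from the low end of the nonzero FPKM, with WT control set to 1.0, reached 2.74 for WT doxorubicin. VIM, a mesenchymal marker of this line, lay between 2883 and 6640 FPKM, and of the receptors that define triple-negative lines by their absence ESR1 was at most 0.196, PGR was 0 and ERBB2 lay between 7.11 and 25.5 in the 8 groups. The extraction text speaks of fibroblast lines, while the fibroblast markers DCN, PDGFRA, LUM and COL1A2 were at most 0.303 FPKM in any group and COL1A1 reached 9.70. The targeted gene ARNTL had FPKM of 5.67 in WT and 0.889 in KO cells in control, 1.26 and 0.941 under cisplatin, 1.31 and 0.474 under doxorubicin, and 3.25 and 2.24 under tunicamycin. Its difference passed the authors' test in control and doxorubicin only. A gene is called where the authors tested it with Cuffdiff and their q was at most 0.05.

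Of the 3 PER genes, which code for the PERIOD proteins that carry the CRYs and casein kinase into the repressor complex, PER2 stood out. Its FPKM was 0.588 in WT and 2.79 in KO cells in control, 1.56 and 4.45 under cisplatin, 0.161 and 0.221 under doxorubicin, and 0.917 and 4.71 under tunicamycin. Outside doxorubicin each KO value was above all 4 WT values, while under doxorubicin both genotypes were low and the authors did not test the gene. PER2 was 4.75-fold higher in KO cells in control (log2 ratio 2.25, q = 0.000213 in the authors' deposited table). Under cisplatin it was 2.86-fold higher (log2 1.51, q = 0.000167 in the authors' deposited table) and under tunicamycin 5.14-fold (log2 2.36, q = 0.000173 in the authors' deposited table). These q are the smallest each table holds, shared in control by 3044 genes. Its log2 ratio was above that of 97.8% of tested genes in control, 97.1% under cisplatin and 98.7% under tunicamycin.

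PER1, an immediate early gene of many outside signals, had FPKM of 3.64 in WT and 4.95 in KO cells in control, 8.67 and 12.7 under cisplatin, 1.17 and 1.69 under doxorubicin, and 5.40 and 10.3 under tunicamycin. The KO value was the higher of the pair in all 4 treatments, by 1.36-fold in control, 1.46-fold under cisplatin, 1.45-fold under doxorubicin and 1.91-fold under tunicamycin. The call was made under cisplatin (q = 0.0104 in the authors' deposited table) and tunicamycin (q = 0.000173 in the authors' deposited table). It was not made in control (q = 0.425 in the authors' deposited table) or doxorubicin (q = 0.322 in the authors' deposited table), although the ratio under doxorubicin was about that under cisplatin. AC129492.3, annotated as protein coding, overlaps PER1 on the same strand, was called in no table and had FPKM of 3.33 in WT and 7.07 in KO control, 6.98 and 4.11 under cisplatin, 9.75 and 7.84 under doxorubicin and 9.11 and 13.5 under tunicamycin. How fragments were split between the genes was not tested.

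PER3, the least rhythm-critical of the PER genes in mouse knockouts, had FPKM of 1.34 in WT and 1.94 in KO cells in control, 2.98 and 2.91 under cisplatin, 1.55 and 1.25 under doxorubicin, and 1.35 and 0.811 under tunicamycin. It was tested in all 4 tables and called in none, with log2 ratios of 0.53, -0.04, -0.31 and -0.74 in that order. The smallest q was that of tunicamycin, 0.109 in the authors' deposited table. At an unadjusted p under 0.05 there was no call either. The sign of its ratio differed between control and the drugs, which PER1 and PER2 did not show.

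The 2 cryptochromes, which give the PER-CRY complex its repressing activity, had similar KO over WT ratios in 3 treatments and differed under cisplatin, a difference that was not tested. CRY1, the stronger repressor, had FPKM of 15.9 in WT and 25.3 in KO cells in control, 18.3 and 18.1 under cisplatin, 6.85 and 7.02 under doxorubicin, and 18.2 and 30.6 under tunicamycin. The genotypes were apart in control and tunicamycin and almost level under cisplatin and doxorubicin. CRY1 was called 1.58-fold higher in KO cells in control (q = 0.000213 in the authors' deposited table) and 1.68-fold higher under tunicamycin (q = 0.000173 in the authors' deposited table). Under cisplatin and doxorubicin its log2 ratios were -0.02 and 0.04, with q of 0.873 and 0.888 in the authors' deposited table.

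CRY2 had FPKM of 1.57 in WT and 2.60 in KO cells in control, 2.90 and 5.26 under cisplatin, 0.198 and 0.220 under doxorubicin, and 2.23 and 3.73 under tunicamycin. Its KO over WT ratio was much the same in the first, second and last of these, at log2 0.73, 0.86 and 0.74. The call was made under cisplatin (q = 0.000167 in the authors' deposited table) and tunicamycin (q = 0.00323 in the authors' deposited table). In control it missed the threshold (unadjusted p = 0.0231, q = 0.0522 in the authors' deposited table), and under doxorubicin the authors did not test the gene. The ratio of CRY1 to CRY2, a comparison of FPKM within a group, was 10.2 in WT and 9.71 in KO control, 6.30 and 3.44 under cisplatin, 34.6 and 32.0 under doxorubicin, and 8.17 and 8.20 under tunicamycin. CRY1 was therefore the main cryptochrome transcript in every group, and least so in KO cells under cisplatin.

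CIART was the only one of the 6 with a lower KO value in all 4 treatments. Its FPKM was 0.396 in WT and 0.0397 in KO cells in control, 1.98 and 0.505 under cisplatin, 0.0847 and 0.0334 under doxorubicin, and 0.436 and 0.0947 under tunicamycin. WT cells under cisplatin held the highest level by far, and the next highest value was 0.505 FPKM. Only the cisplatin table had it tested, where it was called 3.92-fold lower in KO cells (log2 ratio -1.97, q = 0.00173 in the authors' deposited table), a ratio above that of 2.24% of tested genes. The log2 ratios of -3.32, -1.34 and -2.20 in control, doxorubicin and tunicamycin rest on very low levels and have no test. With a pseudocount of 0.1 the control ratio was -1.83, and with a pseudocount of 1 the control and tunicamycin ratios were -0.43 and -0.39.

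**Figure D2:**
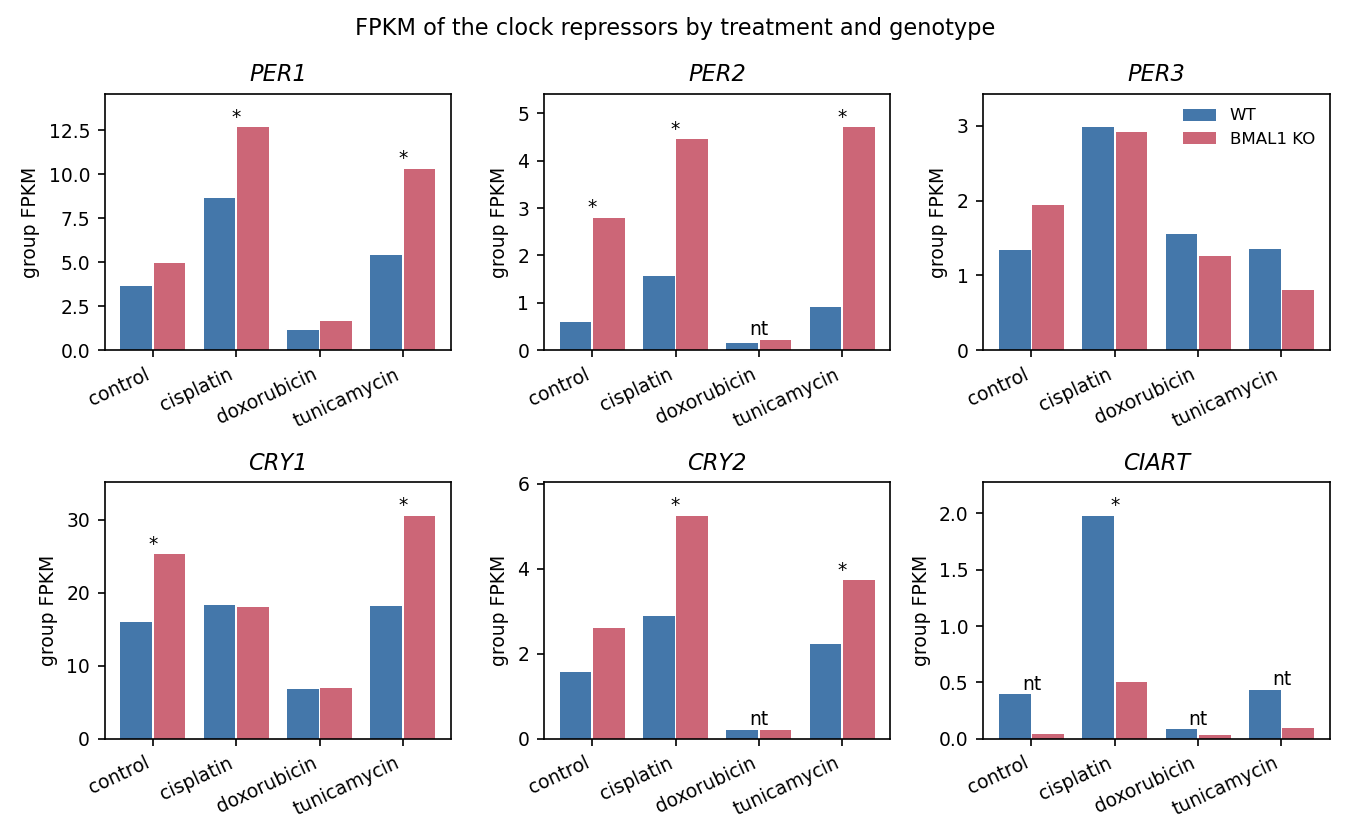
Group FPKM (y axis, linear from 0, 1 value per group of 2 samples, no error available) of each gene in WT and BMAL1 KO cells by treatment; an asterisk marks a call at q of at most 0.05 and nt a gene the authors did not test. The KO bar of PER2 is the taller in all 4 treatments, 3 of them called, that of CIART is the shorter in all 4, 1 of them called, and 5 of the 6 genes, PER3 excepted, have their lowest WT value under doxorubicin.

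By table, 2 of the 5 tested members were called in control, PER2 and CRY1, both higher in KO cells, where 43.8% of all 12978 tested genes were called and 22.7% were called higher. Under cisplatin 3 of 6 were called higher (PER1, PER2 and CRY2) and 1 lower (CIART), against 25.4% and 24.2% of all tested genes and 49.6% in either direction. Under doxorubicin 0 of 3 tested members were called by Cuffdiff, also 0 at an unadjusted p under 0.05, where 45.1% of tested genes were called and 24.4% were called higher. Under tunicamycin 4 of 5 were called, all higher in KO cells (PER1, PER2, CRY1 and CRY2), against 27.2% called higher and 49.3% called in all. With q of at most 0.01 the cisplatin count was 3 of 6 beside 41% of all tested genes, and with a change of at least 1.5-fold it was 3 of 6 beside 20.7%. The share in control lies near the background and is no result about the members as a group, and the other shares rest on 6 or fewer genes. The median log2 ratio over all 6 genes, tested or not, was 0.60 in control, 0.27 under cisplatin, 0.09 under doxorubicin and 0.75 under tunicamycin. Over the tested members alone it was 0.66, 0.27, 0.04 and 0.75, beside medians of 0.01, 0.02, 0.04 and 0.03 over all tested genes.

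**Figure D3:**
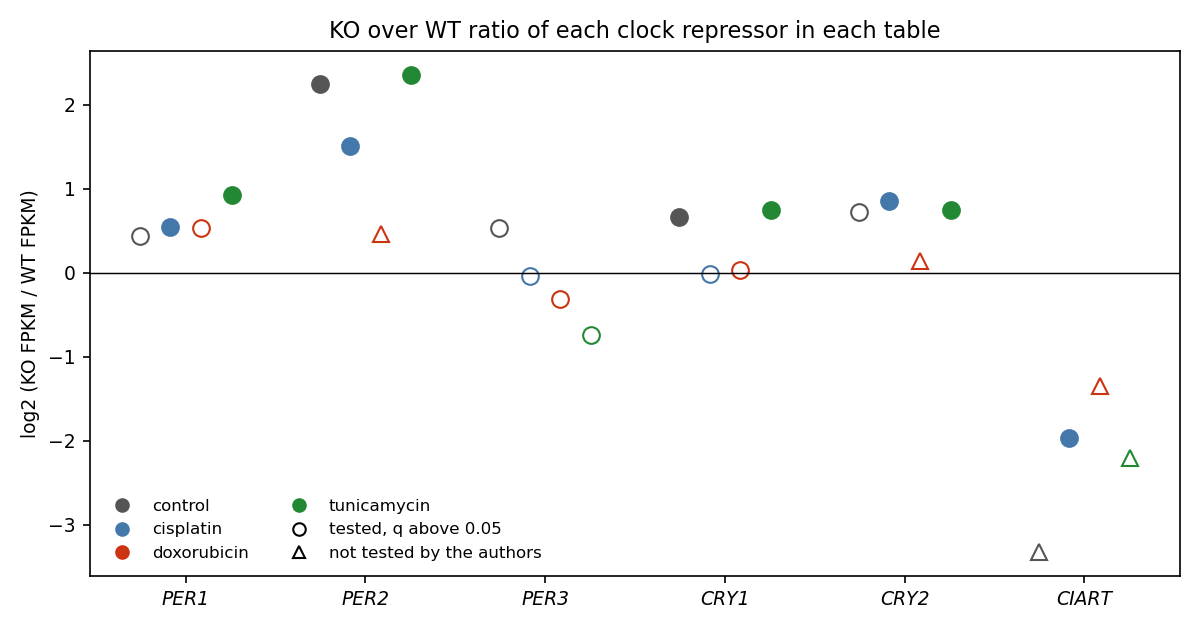
Log2 ratio of KO over WT FPKM (y axis) of each gene (x axis) in the 4 treatments, with filled points for calls, open circles for tested genes with q above 0.05 and open triangles for genes not tested. PER2 lies between 1.51 and 2.36 in the tables that tested it, and CIART is below 0 in all 4.

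The KO over WT ratios under a drug were set against those in control, and these differences between tables were not tested. For PER2 the log2 ratio differed from that in control by -0.73 under cisplatin and by 0.11 under tunicamycin. CRY1 differed from control by -0.68 under cisplatin and -0.63 under doxorubicin but by 0.09 under tunicamycin. CRY2 differed by 0.13 under cisplatin and by 0.02 under tunicamycin. PER3 differed by -0.57, -0.84 and -1.27 under cisplatin, doxorubicin and tunicamycin. PER1 was 0.11, 0.09 and 0.49 above its control ratio in the same order, and the doxorubicin difference turned to -0.05 when a pseudocount of 1 was used.

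Within a genotype, the level under each drug was set beside that in control. Drug and control come from separately normalized tables, so these values have no test, and they are given as the difference of log2(FPKM + 1), a scale that understates low genes. The comparisons of the 3 drugs share the control group of each genotype. Counts are over all 6 members, of which CIART was under 1 FPKM in both groups compared except in WT cells under cisplatin, and PER2 was so in WT cells under doxorubicin and tunicamycin. Under cisplatin all 6 members had a higher level than control in WT cells and 5 in KO cells, where 57.5% and 59.5% of genes of at least 1 FPKM were higher. CIART and PER1 had the largest differences in WT cells, 1.09 and 1.06, and they were the only members to reach 2-fold on this scale, which 6.81% of genes did. In KO cells PER1 alone reached 2-fold on it, as did 5.41% of genes. The order depended on the pseudocount. With 0.1 in place of 1, WT cells had CIART at 2.07, PER2 at 1.27, PER1 at 1.23 and PER3 at 1.10. In KO cells CIART was then at 2.12 and PER1 at 1.34. PER1 went from 3.64 to 8.67 FPKM in WT and from 4.95 to 12.7 in KO cells. With a pseudocount of 1 its difference of 1.20 in KO cells exceeded that of 97.2% of genes. CRY1 was the exception, at 15.9 in control and 18.3 under cisplatin in WT cells but 25.3 and 18.1 in KO cells, differences of 0.19 and -0.46.

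Under doxorubicin 5 of 6 members had a lower level than control in WT cells and all 6 in KO cells, but so did 72.3% and 69.3% of genes. The median over all genes was -0.72 in WT and -0.74 in KO cells, and 41.3% and 42% of genes were at least 2-fold lower, among them 3 and 4 of the 6 members. The median over the 6 members was -0.78 in WT and -1.35 in KO cells. CRY2 went from 1.57 to 0.198 FPKM in WT and from 2.60 to 0.220 in KO cells, which is 7.91-fold and 11.8-fold lower without a pseudocount. On the log2(FPKM + 1) scale these differences were -1.10 and -1.56, above those of 38.1% and 27.6% of genes. PER2 went from 0.588 to 0.161 in WT and from 2.79 to 0.221 in KO cells, 3.66-fold and 12.6-fold lower without a pseudocount. Its KO and WT values under doxorubicin thus lay close together. PER3 differed from the others, at 1.34 in control and 1.55 under doxorubicin in WT cells and 1.94 and 1.25 in KO cells. Its WT difference of 0.13 turned to -0.03 when each group was rescaled to the same summed FPKM.

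Under tunicamycin all 6 members in WT cells and 5 in KO cells had a level above control, where 43.3% and 42.4% of genes did. The differences were small in WT cells, from 0.01 for PER3 to 0.46 for PER1. In KO cells PER1 went from 4.95 to 10.3 FPKM (0.93 on the log2 scale, above that of 95.7% of genes) and PER2 from 2.79 to 4.71 (0.59). PER3 went the other way in KO cells, from 1.94 to 0.811 FPKM, a difference of -0.70 that lay above that of only 5.94% of genes.

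**Figure D4:**
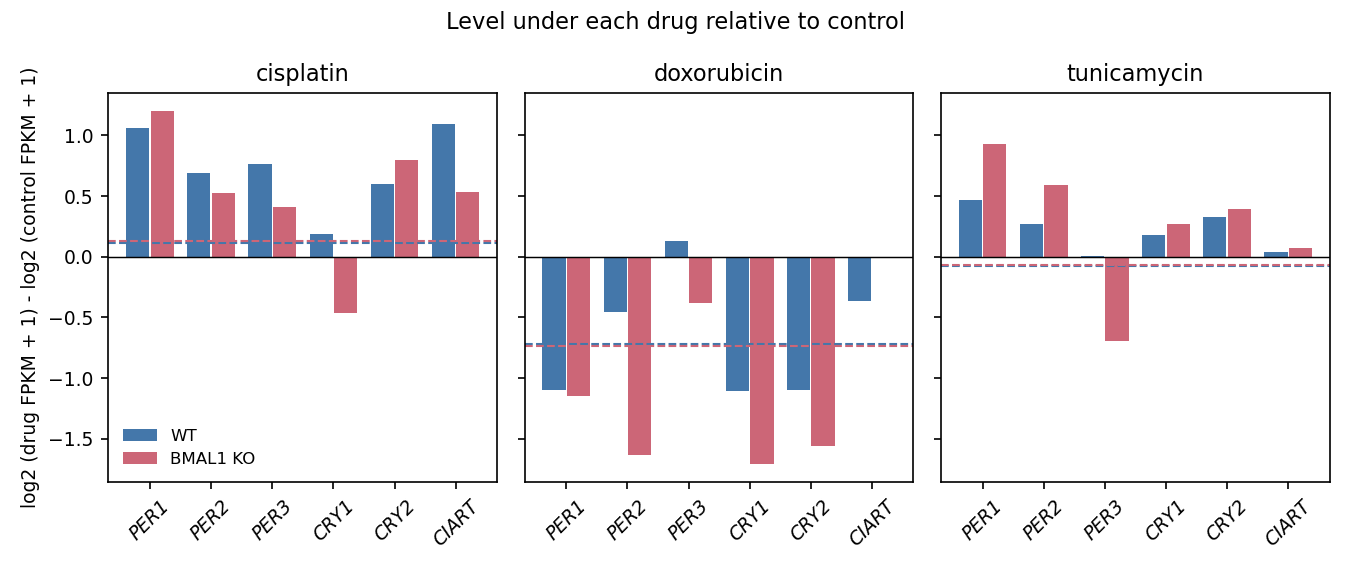
Difference of log2(FPKM + 1) between each drug and control (y axis) for each gene in WT and BMAL1 KO cells, with the median over all genes of at least 1 FPKM as dashed lines. Cisplatin bars are above 0 but for CRY1 in KO cells, and doxorubicin bars are below 0 but for PER3 in WT cells, where the median over all genes was -0.72.

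In the order of FPKM, CRY1 led in all 8 groups and CIART was last in 7, with PER2 below it in WT cells under cisplatin. PER1 came next after CRY1 in all groups but WT doxorubicin, where PER3 at 1.55 was above PER1 at 1.17. Without a spread per group, neighbours in this order cannot be said to differ. PER2 was the least abundant PER gene in every WT group and ranked above PER3 in every KO group but doxorubicin. The ratio of PER2 to PER1 was 0.161 in WT and 0.564 in KO control, 0.180 and 0.351 under cisplatin, 0.138 and 0.131 under doxorubicin, and 0.170 and 0.457 under tunicamycin. The 4 WT ratios are close together, and 3 of the 4 KO ratios lie above all of them.

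Each member's KO over WT ratio was also set beside the tested genes within 5 Mb of it. CRY1, on chromosome 12 from 106991364 to 107093829 (minus strand, GRCh38, GENCODE 29, the whole gene), had neighbours with a median log2 ratio of -0.53 in control, -0.44 under cisplatin, -0.47 under doxorubicin and -0.38 under tunicamycin. CRY2, on chromosome 11 from 45847118 to 45883248 (plus strand), had neighbours at -0.54, -0.47, -0.36 and -0.45 in the same order. Both genes therefore lay above their surroundings in all 4 tables, by 1.20 and 1.27 on the log2 scale in control, and CRY1 still did by 0.43 under cisplatin and 0.50 under doxorubicin, where its own ratio was near 0. Around PER1 (chromosome 17, 8140472 to 8156506, minus strand) and PER2 (chromosome 2, 238244038 to 238290102, minus strand) the medians were between 0.08 and 0.27. Those around PER3 (chromosome 1, 7784320 to 7845177, plus strand) and CIART (chromosome 1, 150282543 to 150287093, plus strand) were between -0.03 and 0.19. The number of gene copies was not measured, and the part of the chromosome segments in these ratios was not tested.

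**Figure D5:**
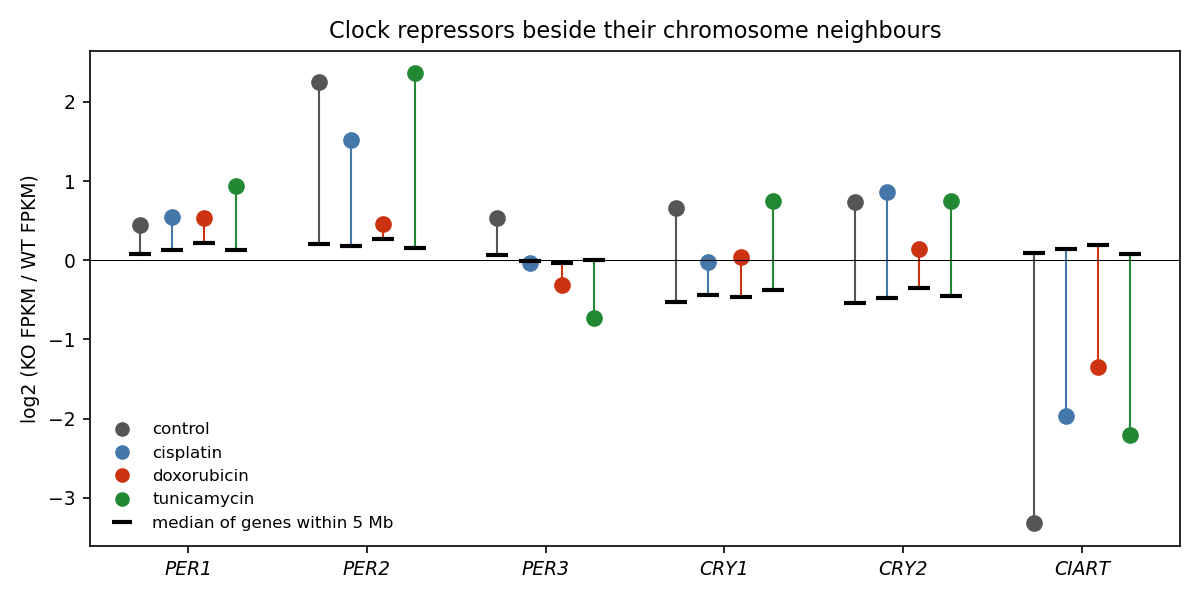
Log2 ratio of KO over WT FPKM (y axis) of each gene (points) beside the median of tested genes within 5 Mb (black bars) in the 4 treatments. The bars of CRY1 and CRY2 lie between -0.54 and -0.36, below both genes in every treatment.

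The rest of the pathway was counted by role in 8 lists of 48 genes, chosen with earlier results of these data known. The counts are to be read against the share of all tested genes called in either direction, 43.8% in control, 49.6% under cisplatin, 45.1% under doxorubicin and 49.3% under tunicamycin, and no list is singled out by its count. Among the activators (ARNTL, ARNTL2, CLOCK and NPAS2), 1 was called higher and 1 lower of 4 tested in control, 1 and 1 under cisplatin, 1 and 2 under doxorubicin and 2 and 0 under tunicamycin, which is 2 or 3 of 4 genes in each table. In the second loop, where REV-ERBs repress and RORs activate ARNTL, no gene of the 3 tested was higher in any table, and 2, 2, 2 and 1 were lower in control, cisplatin, doxorubicin and tunicamycin. NR1D2 (REV-ERB beta) was lower in all 4, at log2 ratios of -3.40, -2.59, -3.28 and -2.36, so it moved opposite to PER2 in the 3 tables that called both. NR1D1 (REV-ERB alpha) was called lower under doxorubicin only (-0.96). It was not called in control (-0.15), cisplatin (0.14) or tunicamycin (0.06). RORA was called lower in control and cisplatin, with low WT values of 1.14 and 1.23 FPKM. The D-box factors had 1 higher and 1 lower call of 3 tested in control, 2 and 0 of 4 under cisplatin, 0 and 0 of 2 under doxorubicin and 1 and 1 of 4 under tunicamycin. Like PER2, TEF was called higher in control, cisplatin and tunicamycin, with log2 ratios of 1.52, 1.08 and 1.62. Neither gene was tested under doxorubicin. DBP was called higher under cisplatin only (0.47), and HLF was not called. NFIL3, a repressor at D-boxes, was called lower in control (-0.43) and tunicamycin (-0.19). It was not called under cisplatin (0.15) or under doxorubicin (-0.72). Whether NR1D2, TEF or NFIL3 acts on PER2 in these cells was not tested. The DEC repressors had 1 higher call of 2 in control (BHLHE41) and in tunicamycin (BHLHE41), 1 lower call of 2 under cisplatin (BHLHE40), and no call for the 1 gene tested under doxorubicin.

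Among kinases that phosphorylate PER and CRY proteins, 4 of 7 were called higher and 0 lower in control, 3 and 2 under cisplatin, 3 and 1 under doxorubicin and 3 and 1 under tunicamycin. These are 4 or 5 of 7 genes per table, where 43.8% to 49.6% of all tested genes were called, and the median log2 ratio of the list lay between 0.10 and 0.36. CSNK1D, a casein kinase that marks PER proteins for breakdown, was higher in all 4, at 46.4 to 67.0 FPKM from WT to KO in control and 10.5 to 16.7 under doxorubicin. Its log2 ratios under cisplatin and tunicamycin were smaller, 0.17 and 0.16. CSNK1E was called higher in control (0.45) and under no drug. The turnover list had 3 higher and 0 lower calls among 6 tested in control, 3 and 3 of 7 under cisplatin, 3 and 1 of 5 under doxorubicin and 3 and 0 of 6 under tunicamycin. In control 3 of 6 is near the 43.8% of all tested genes. CUL4A, a ubiquitin ligase scaffold, was higher in all 4 tables, at 50.0 to 95.0 FPKM from WT to KO in control and 41.6 to 98.7 under cisplatin. It lies on chromosome 13, where the median log2 ratio of the genes within 5 Mb of it was 0.98 in control, and the part of that segment was not tested.

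Partners and cofactors of the PER-CRY complex had 5 higher and 2 lower calls of 9 tested in control, 5 and 3 of 9 under cisplatin, 3 and 1 of 7 under doxorubicin and 4 and 2 of 9 under tunicamycin, against 43.8%, 49.6%, 45.1% and 49.3% of all tested genes in that order. The median log2 ratio of the list was 0.20, 0.10, 0.09 and 0.09. WDR5, a histone methylation cofactor found with PER proteins, was lower in all 4 (12.4 to 6.85 FPKM under doxorubicin), and HDAC1, a histone deacetylase, was higher in 3 and lower under cisplatin. The list of glucocorticoid and cAMP response genes also holds NR3C1 and CREB1, which carry these inputs, so its counts are no plain readout of them. It had 1 higher and 2 lower calls of 7 in control and 2 and 4 of 8 under cisplatin. Under doxorubicin there were 1 and 0 of 6, and under tunicamycin 1 and 3 of 8. The 3 of 7 called in control are at the share of all tested genes, 43.8%. The 2 lower calls in control were SGK1, from 24.8 to 6.11 FPKM, and DUSP1, from 115 to 63.4. The higher call was CREB1. FKBP5, TSC22D3, NR4A1 and NR3C1 were not called there, at log2 ratios of 0.19, -0.19, -0.06 and -0.14. Under cisplatin FKBP5 and TSC22D3 were called higher, and SGK1, DUSP1, KLF9 and NR3C1 lower. PER1 was not called in control, and whether these inputs act on it was not tested. Genes with CACGTG in the searched window numbered 1038 tested in control, of which 27.4% were called higher and 18.6% lower, beside 24.4% and 21.6% of all 9100 tested genes that have a window. Of such genes 28.6%, 26.4% and 29.5% were called higher under cisplatin, doxorubicin and tunicamycin, beside 29.2%, 26.7% and 30.8% of all genes with a window. Called lower were 27.0%, 22.9% and 24.4% in that order, beside 26.3%, 22.3% and 23.4%.

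Over the 8 groups the genes most like each member were found by Pearson's r of log2(FPKM + 1) among 11604 genes, as a description of 8 points that share libraries and tables. PER1 was closest to OSGIN1 (r = 0.990), RPS6KB1 (0.989) and PJA1 (0.984). PER2 was closest to NPM3 (0.978), STYK1 (0.973) and MRPS31P4 (0.972), and PER3 to C1QTNF2 (0.972), TGFBR3L (0.965) and PLCG1 (0.957). CRY1 was closest to ZNF655 (0.987), NAV3 (0.986) and SEMA4B (0.986). CRY2 was closest to CTR9 (0.994), HOXD3 (0.994) and ZBTB11-AS1 (0.992), and CIART to DUSP2 (0.991) and LHX6 (0.977). By Spearman's rho at most 1 of the 3 closest genes stayed among the 3 closest for any member. Among the members themselves, r was 0.978 between PER1 and CRY2 and 0.906 between PER2 and CRY2, but 0.0427 between PER3 and CRY1 and 0.0948 between PER2 and CIART.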

How the data were processed

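RNA-seq of 16 samples in 8 groups of 2 was analysed from 4 deposited tables, 1 per treatment. Tools named by the submitters' processing notes are STAR 2.5.3, Trimmomatic 0.35, FastQC 0.11.5, Cuffdiff and Cufflinks, with build hg38. What each did, the annotation and whether strand was used were not given, which leaves genes that overlap another uncertain. The FPKM deposited by the authors is a single number for both replicates of a group, and the log2 ratio deposited by the authors is KO over WT without a pseudocount. The score deposited by the authors is Cuffdiff's statistic, and the q-value deposited by the authors is the p-value adjusted over the tested genes of a table. Adjusting the p-values again gave the same q with a largest gap of 5.25e-07. Columns of FPKM carry codes rather than genotypes, and WT and KO were assigned from the order in the tables' names. The p-values set the difference between 2 groups against the spread between these samples as Cuffdiff estimated it. Low values gave only a rough guide to depth.

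From these, ratios, drug differences with a pseudocount of 1, medians of tested genes within 5 Mb, list counts and motif matches were computed with Python 3.11.15 and pandas 2.3.3, and the adjustment and the likeness search were tested on simulated data. Gene positions are from GENCODE 29 and sequences from RefSeq. Named genes were the 6 members, up to 4 genes per list called in most tables, and the 3 genes most like each member; a few of these are not reported here. The lists were the activators, second loop nuclear receptors, DEC repressors, D-box factors, kinases, turnover genes, complex partners, and glucocorticoid and cAMP response genes. The members and lists were chosen with earlier results of these data known. Alternatives were other thresholds, filters, pseudocounts and scalings.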

Additional observations from a re-analysis of the deposited data

How the results depend on the processing

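The number of members called in each table stayed within 1.5 times of the reported one at q of at most 0.01, among genes of FPKM of at least 1 and with a change of at least 1.5-fold. Under cisplatin it was 3 in place of 4 with the stricter q and with the fold limit. The share of all tested genes called moved too, in control from 43.8% to 34.3% with the stricter q and 23.9% with the fold limit. Those shares were 41% and 20.7% under cisplatin, 36.8% and 24.6% under doxorubicin, and 40.1% and 20% under tunicamycin. Among genes of FPKM of at least 1 the share was 44.2%, 53.7%, 49.9% and 52.6% in control, cisplatin, doxorubicin and tunicamycin. With so few members a steady count says little. Of 24 KO over WT ratios, CRY1 under doxorubicin turned to -0.00628 when centred on the median of tested genes and to -0.17 when rescaled to the same summed FPKM, and CRY2 under doxorubicin turned to -0.0619 with that rescaling. Neither was called. A pseudocount of 1 kept every sign of these ratios and shrank those of low genes. CIART went to -0.43 in control, -0.07 under doxorubicin and -0.39 under tunicamycin, where it was not tested, and to -0.99 under cisplatin. PER2 went to 1.26 in control, 1.09 under cisplatin and 1.57 under tunicamycin. With a pseudocount of 1 the cisplatin minus control difference of CIART turned from 1.35 to -0.56, and the doxorubicin minus control difference of PER1 turned to -0.0458. With a pseudocount of 0.1 in place of 1, 7 drug differences moved by 1.5-fold or more and 29 did not. With a pseudocount of 0.01, 9 moved so and 27 did not. Of the drug differences, PER3 under doxorubicin in WT cells turned to -0.0264 when rescaled, and CIART in KO cells turned from -0.01 to 0.00383 when scaled to the 75th percentile. These scalings moved the doxorubicin median of all genes by -0.25 and 0.30 in WT cells and by -0.39 and 0.25 in KO cells. The causes were not tested. No paired analysis was possible because the tables hold 1 value per group, and for the same reason no replicate could be left out. No symbol repeated, so the sum over rows was not run. Low levels limit CIART outside cisplatin and PER2 and CRY2 under doxorubicin.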
